A study of Mus musculus and Homo sapiens with 4 samples.

Results

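The genes described here are 10 mouse genes of macrophages and of the lysosome (*Cd68*, *Lyz2*, *Lyz1*, *Mrc1*, *Csf1*, *Csf1r*, *Ctss*, *Ctsd*, *Ctsb* and *Lamp1*), measured by RNA sequencing in cultures of mouse embryonic fibroblasts (MEFs). They were taken by name, and all 10 were found among the 23329 gene symbols of the MEF libraries. The series holds 4 libraries, of which the 2 MEF libraries were used. One was made from fibroblasts of wild-type (WT) embryos and the other from fibroblasts of NEAT1 knockout (KO) embryos. Neat1 is a long non-coding RNA of the nucleus, and its entry was 14.7 times lower in KO than in WT but not at 0. Per the labels both cultures came from C57BL/6 mice at stage E13.5, were at passage 2 to 3, grew without any stated treatment in a mixture of DMEM and Ham's F12 with serum, and gave poly-A RNA. The labels do not say how many embryos each culture held or whether these were littermates. With 1 library per genotype there is no replicate check, no test between genotypes was made, and genotype and culture cannot be told apart. The genes were chosen by name after the RPKM values and log2 ratios of these same libraries had been seen, so that their differences are given as a description.

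Lysosomes are acidic compartments in which proteases, glycosidases and lipases degrade what a cell takes up or recycles. Most cells have them, whereas macrophages, which clear debris by phagocytosis, make large amounts of some lysosomal proteins and carry surface receptors that fibroblasts lack. Macrophages depend on the cytokine Csf1, which mesenchymal cells such as fibroblasts secrete, and on its receptor Csf1r. Mouse embryos already contain macrophages at the stage from which MEFs are made, and a MEF culture is not purified for fibroblasts.

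The lysozymes are the members for which the sequence decides what was measured. *Lyz2* encodes the lysozyme of macrophages and granulocytes, and *Lyz1* its neighbour and paralog, known as the form of Paneth cells. They lie side by side on the minus strand of chromosome 10 (mm10), *Lyz2* at chr10:117277541-117282272 and *Lyz1* at chr10:117287795-117292868. Their coding sequences, from the GENCODE M21 transcripts on GRCm38, are shown to let the likeness be seen. Each coding sequence is 447 bases long, and they differ at 22 positions, an identity of 95.1%. The first 300 bases are printed, and capitals mark the 20 of these positions that lie there.
Lyz1: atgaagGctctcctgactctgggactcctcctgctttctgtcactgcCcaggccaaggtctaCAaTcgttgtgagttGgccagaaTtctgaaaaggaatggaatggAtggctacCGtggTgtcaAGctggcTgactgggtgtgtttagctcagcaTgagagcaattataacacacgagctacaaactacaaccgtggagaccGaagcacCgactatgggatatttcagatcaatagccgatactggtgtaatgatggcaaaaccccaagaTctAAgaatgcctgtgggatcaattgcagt
Lyz2: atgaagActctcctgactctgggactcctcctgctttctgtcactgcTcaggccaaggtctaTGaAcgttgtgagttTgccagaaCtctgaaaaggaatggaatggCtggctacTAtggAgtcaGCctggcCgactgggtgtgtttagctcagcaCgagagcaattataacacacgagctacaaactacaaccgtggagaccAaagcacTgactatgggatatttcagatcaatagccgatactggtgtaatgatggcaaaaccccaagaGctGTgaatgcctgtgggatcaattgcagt
Over the whole annotated transcripts, untranslated parts included, 34.0% of the 30-base windows of *Lyz2* occurred exactly in *Lyz1*. The share was 15.4% for windows of 50 bases and 5.96% for windows of 75 bases. The read length and the treatment of reads that match both genes are not given in the sources used here.

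*Lyz2* had 13.9 RPKM in WT and 34.7 RPKM in KO (reads per kilobase of transcript, scaled by the number of mapped reads), whereas *Lyz1* was listed at 0 in WT and had 0.0237 RPKM in KO. Nearly all lysozyme signal of either library was thus assigned to *Lyz2*. The *Lyz1* value corresponded to about 1 read pair, so that no ratio is given for it. For the other members the estimated number of read pairs gave an interval for the ratio of the libraries. The smallest steps of the RPKM values placed the depth at about 31400000 read pairs in WT and 29600000 in KO. These intervals (95%, exact binomial) cover counting error only and not the spread between cultures. *Lyz2* rested on about 460 read pairs in WT and 1086 in KO, and its RPKM ratio of KO over WT was 2.50 (2.24 to 2.80).

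*Cd68*, a glycosylated protein of the lysosomes and endosomes of macrophages, moved by a like amount. It had 2.79 RPKM in WT and 7.26 RPKM in KO, a ratio of 2.60 (2.03 to 3.39) from about 88 and 217 read pairs. The proportion of the 2 genes was therefore close in both libraries, *Lyz2* being 4.97 times as high as *Cd68* in WT and 4.78 times in KO. *Mrc1*, the mannose receptor of tissue macrophages, did not share this difference. Its level was 0.0804 RPKM in WT and 0.0817 RPKM in KO, and its ratio of 1.02 (0.45 to 2.48) rested on about 13 read pairs in each library. That interval overlaps the one of *Lyz2*, so that the depth does not separate them.

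**Figure D1:**
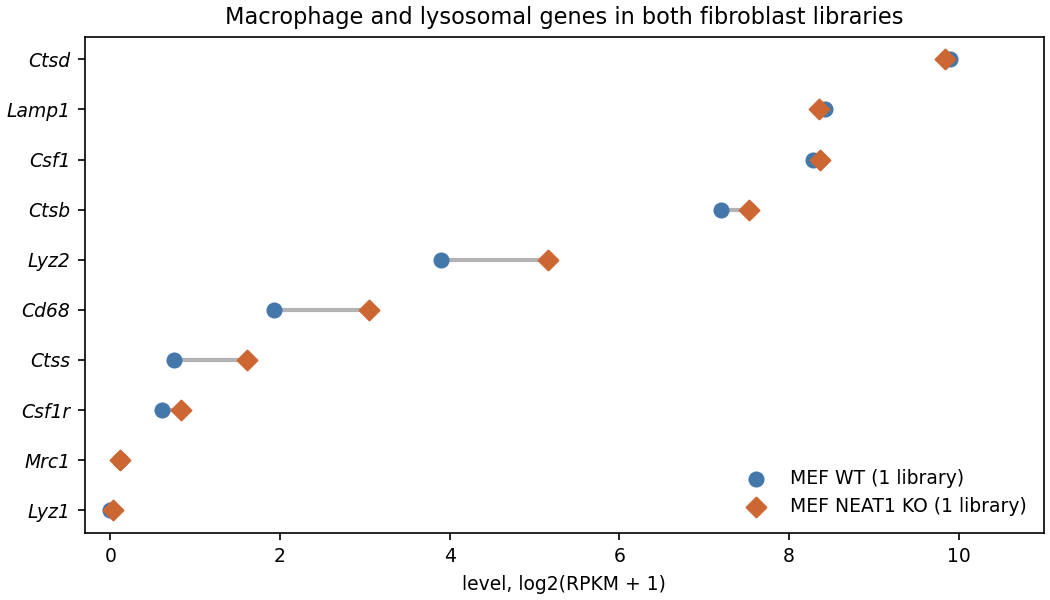
Level of each of the 10 genes as log2(RPKM + 1), with circles for the WT library and diamonds for the KO library, 1 library each and so without error bars. *Lyz2*, *Cd68* and *Ctss* show the widest gaps, and *Ctsd*, *Lamp1* and *Csf1* lie at the top with overlapping symbols.

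Csf1 and its receptor were measured at opposite ends of the range. *Csf1*, the growth factor that keeps macrophages alive, had 311 RPKM in WT and 328 RPKM in KO, at rank 113 and rank 118 of the 23329 symbols. It was thus among the most abundant transcripts of both cultures, with a ratio of 1.06 (1.04 to 1.07). *Csf1r*, the receptor tyrosine kinase that marks the macrophage lineage, had 0.521 RPKM in WT and 0.775 RPKM in KO. Its ratio was 1.49 (1.07 to 2.10) from about 63 and 89 read pairs. The upper end of this interval lies below the lower end of that of *Lyz2*, and it overlaps the interval of *Cd68* only between 2.03 and 2.10. The intervals leave out the spread between cultures, and the members were chosen with their ratios in view. Nothing is therefore read from this gap. On the per-length scale the ligand was 596 times as high as its receptor in WT and 423 times in KO. *Il34*, the other known ligand of Csf1r, had 0.644 and 0.613 RPKM; it was named after its value had been seen.

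The lysosomal members fell into high transcripts that hardly differed and 1 low transcript that did. *Ctsd* encodes cathepsin D, an aspartic protease found in the lysosomes of most cells. It had 951 RPKM in WT and 913 RPKM in KO, at rank 34 and rank 36 of all symbols, with a ratio of 0.960 (0.949 to 0.971). *Lamp1*, the main glycoprotein of the lysosomal membrane, had 341 RPKM in WT and 326 RPKM in KO, a ratio of 0.957 (0.939 to 0.975). Both were slightly lower in KO, and *Ctsd* stood at 2.79 times the level of *Lamp1* in WT and 2.80 times in KO. *Ctsb*, the cysteine protease cathepsin B, had 146 RPKM in WT and 183 RPKM in KO, a ratio of 1.26 (1.23 to 1.28).

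*Ctss* encodes cathepsin S, a cysteine protease of antigen-presenting cells that trims the invariant chain of MHC class II. It had 0.684 RPKM in WT and 2.07 RPKM in KO. Its ratio of 3.02 (1.97 to 4.80) was the largest of the 9 genes that have one, and it rested on about 29 and 83 read pairs. *Ctss* remained a minor cathepsin in both cultures, *Ctsb* being 213 times as high in WT and 88.4 times in KO.

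Promoters of *Ctsd* and *Ctss* are shown because these are the highest lysosomal member and the member with the largest ratio, and because they hold letters of known binding motifs. The sequences are those of RefSeq on GRCm38.p6, from 250 bases before to 50 bases after the annotated start, written in the direction of the gene. A promoter was found for 8 of the 10 genes. Capitals mark the palindromic E-box CACGTG, the core of the element that TFEB and related factors bind at lysosomal genes, and the interferon-stimulated response element, searched as GAAA followed after 2 bases by a further GAAA. Both were searched on both strands.
Ctsd: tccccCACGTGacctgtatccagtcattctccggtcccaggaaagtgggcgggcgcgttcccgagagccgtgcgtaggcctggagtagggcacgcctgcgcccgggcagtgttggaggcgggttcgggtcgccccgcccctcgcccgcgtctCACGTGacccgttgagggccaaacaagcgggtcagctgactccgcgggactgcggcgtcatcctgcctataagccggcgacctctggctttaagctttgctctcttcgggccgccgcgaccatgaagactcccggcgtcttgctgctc
Ctss: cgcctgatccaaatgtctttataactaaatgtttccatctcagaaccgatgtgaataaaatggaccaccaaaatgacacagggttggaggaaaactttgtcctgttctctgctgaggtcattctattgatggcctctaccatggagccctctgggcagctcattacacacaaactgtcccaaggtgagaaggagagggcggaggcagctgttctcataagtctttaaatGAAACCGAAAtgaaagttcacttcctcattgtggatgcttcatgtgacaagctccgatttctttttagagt
The window of *Ctsd* (chr7:142387778-142388077, minus strand) held 2 E-boxes, and that of *Ctss* (chr3:95526536-95526835, plus strand) held 1 interferon element and no E-box. The window of *Lamp1*, not printed, held 4 E-boxes and 1 interferon element. Of all 32851 promoter windows 7.15% held the E-box and 3.44% the interferon element. The 5 other windows held neither. None of the 8 windows held TTCNNNGAA, the letters of a gamma-activated site, which 8.30% of all windows held, or AGAGGAAGT, a site of the macrophage factor PU.1, which 1.00% held. The matches are a description of these letters and not of binding. Only these exact letters were searched, so that variants of a site were not counted and their absence is not shown.

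To compare low and high genes on 1 scale, 1 RPKM was added to each value before the log2 ratio of KO over WT was taken, which understates the difference of low genes. On this scale *Lyz2* had 1.26, *Cd68* 1.12, *Ctss* 0.86, *Ctsb* 0.33, *Csf1r* 0.22, *Csf1* 0.08, *Lyz1* 0.03 and *Mrc1* 0.0018. *Ctsd* and *Lamp1* had -0.06 each, equal to the median of -0.06 over the 10888 symbols with at least 1 RPKM in both libraries. A log2 ratio above 1 was reached by 2 of the 10 genes, against 0.977% of all symbols (228), and a log2 ratio below -1 by 0 of the 10, against 0.334% (78). Since the genes were chosen with these values in view, nothing is read from that share. *Lyz2* ranked 150 and *Cd68* 178 of all symbols by log2 ratio.

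**Figure D2:**
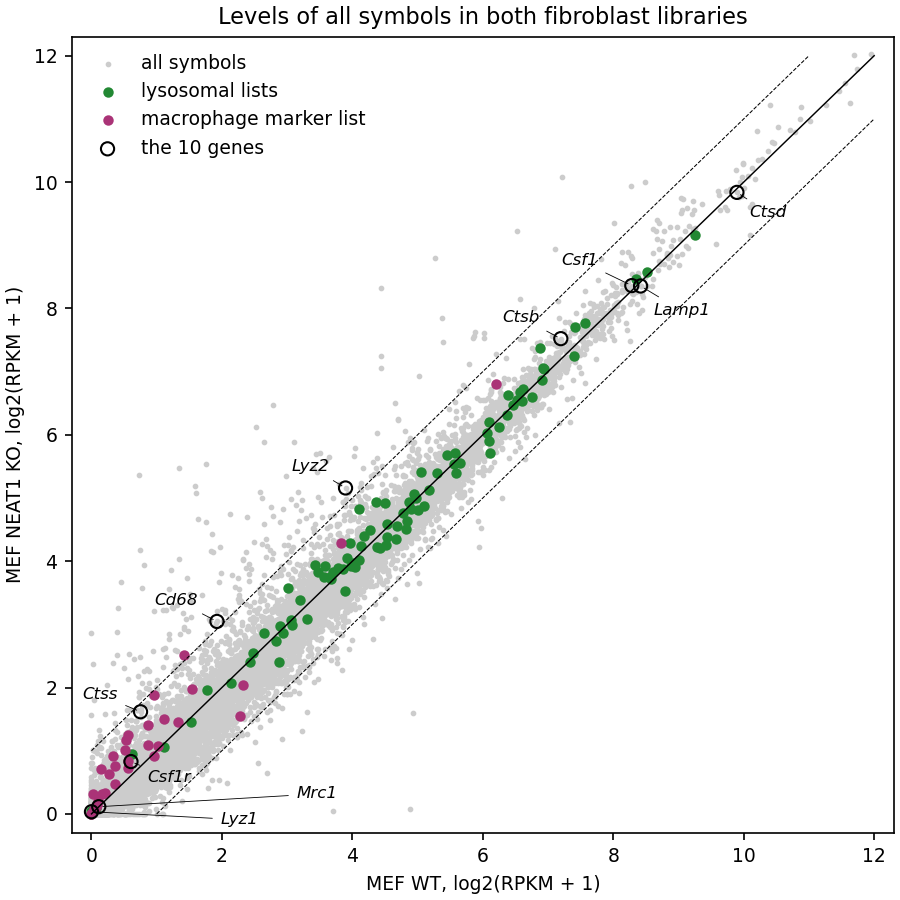
Level in WT (horizontal axis) against level in KO (vertical axis), both as log2(RPKM + 1), for all 23329 symbols (grey), the 89 lysosomal genes (green), the 34 macrophage markers (purple) and the 10 genes (open circles). The solid line marks equal levels and the dashed lines a log2 ratio of 1 in size; *Lyz2*, *Cd68* and the marker *Cd14* lie outside them and the lysosomal genes inside.

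A list of 34 macrophage markers was examined beside these genes, all of them found. They were low in both cultures: 9 reached 1 RPKM in WT and 15 in KO. *Lgals3* (72.4 and 110 RPKM) and *Gpnmb* (13.2 and 18.4 RPKM), which are not restricted to macrophages, made up most of the summed level of 108 RPKM in WT and 162 RPKM in KO. Without them the sums were 22.6 and 33.2 RPKM, and no remaining marker reached 5 RPKM. *Cd163* and *Ccr2*, a scavenger receptor and the receptor of monocyte recruitment, were listed at 0 in both libraries. Higher values in KO were found for 29 of the 34 and lower ones for 3, with a median log2 ratio of 0.20. Over all symbols the median was 0.00, with 6226 listed at 0 in both libraries and 30.1% higher in KO, and over the symbols with at least 1 RPKM in both libraries it was -0.06, with 39.1% higher in KO. A log2 ratio above 1 was reached by 1 of the 34, against 0.977% of all symbols, and nothing is read from that count.

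The ratios of the markers were not all alike, and their intervals cover counting error only. *Cd14*, a receptor for bacterial lipopolysaccharide, had 1.67 RPKM in WT and 4.73 RPKM in KO, a ratio of 2.84 (2.19 to 3.75) and the only log2 ratio above 1 (1.10). *Emr1*, the gene of the macrophage antigen F4/80, had 0.482 and 1.37 RPKM, a ratio of 2.84 (2.03 to 4.02). *Fcer1g*, the signalling chain of Fc receptors, had 0.944 and 2.68 RPKM, with the same ratio of 2.84 (1.69 to 5.19). The pore-forming *Mpeg1* had 0.449 and 1.24 RPKM, a ratio of 2.77 (2.04 to 3.77). The integrin chain *Itgam* had 0.199 and 0.542 RPKM, a ratio of 2.73 (1.76 to 4.36). *Itgb2*, a further integrin chain, had 0.421 and 1.01 RPKM, a ratio of 2.40 (1.62 to 3.61). *Sfpi1*, which encodes PU.1, had 0.286 and 0.682 RPKM. Its ratio of 2.39 (1.17 to 5.16) rested on about 12 and 27 read pairs, and its interval overlaps that of *Csf1r*. *Laptm5*, a lysosomal membrane protein of blood cells, had 0.816 and 1.65 RPKM, a ratio of 2.03 (1.48 to 2.82).

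Other markers had ratios closer to that of *Csf1r*, with intervals that overlap those of several markers above, so that no separate sets are drawn. *Tyrobp*, the adaptor DAP12, had 1.91 RPKM in WT and 2.93 RPKM in KO, a ratio of 1.54 (0.97 to 2.44). *Trem2*, a lipid receptor that signals through it, had 1.15 and 1.84 RPKM, a ratio of 1.60 (1.05 to 2.47). *Coro1a*, an actin-binding protein of leukocytes, had 0.820 and 1.12 RPKM, a ratio of 1.37 (0.89 to 2.11). The 3 genes of complement C1q, secreted by tissue macrophages, had ratios near 1. *C1qa* had 0.935 and 0.892 RPKM, a ratio of 0.954 (0.545 to 1.66). *C1qb* had 1.51 and 1.73 RPKM, a ratio of 1.15 (0.76 to 1.72), and *C1qc* had 1.03 and 1.10 RPKM, a ratio of 1.07 (0.64 to 1.76). The upper ends of all 3 intervals lie below the lower ends of those of *Lyz2*, *Cd68* and *Ctss*. The intervals leave out the spread between cultures, and these members were chosen with their ratios in view. Nothing is therefore read from this gap. *Lyz2* was 14.8 times as high as *C1qa* in WT and 38.9 times in KO.

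Further markers were lower in KO or too rare to compare. *Csf2ra*, a chain of the GM-CSF receptor, had 4.01 and 3.11 RPKM, a ratio of 0.775 (0.63 to 0.946). *Ptprc*, the pan-leukocyte gene of CD45, had 0.0449 and 0.0813 RPKM from about 7 and 12 read pairs, and *Cx3cr1*, the fractalkine receptor of resident macrophages, had 0.0600 and 0.0999 RPKM from about 7 and 11. Their intervals ran from 0.659 to 5.44 and from 0.589 to 5.06. Among markers named after their values had been seen, *Cybb*, the oxidase subunit gp91phox, had the largest ratio in the plot of ratios, 5.70 (3.40 to 10.6), with 0.110 and 0.629 RPKM.

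**Figure D3:**
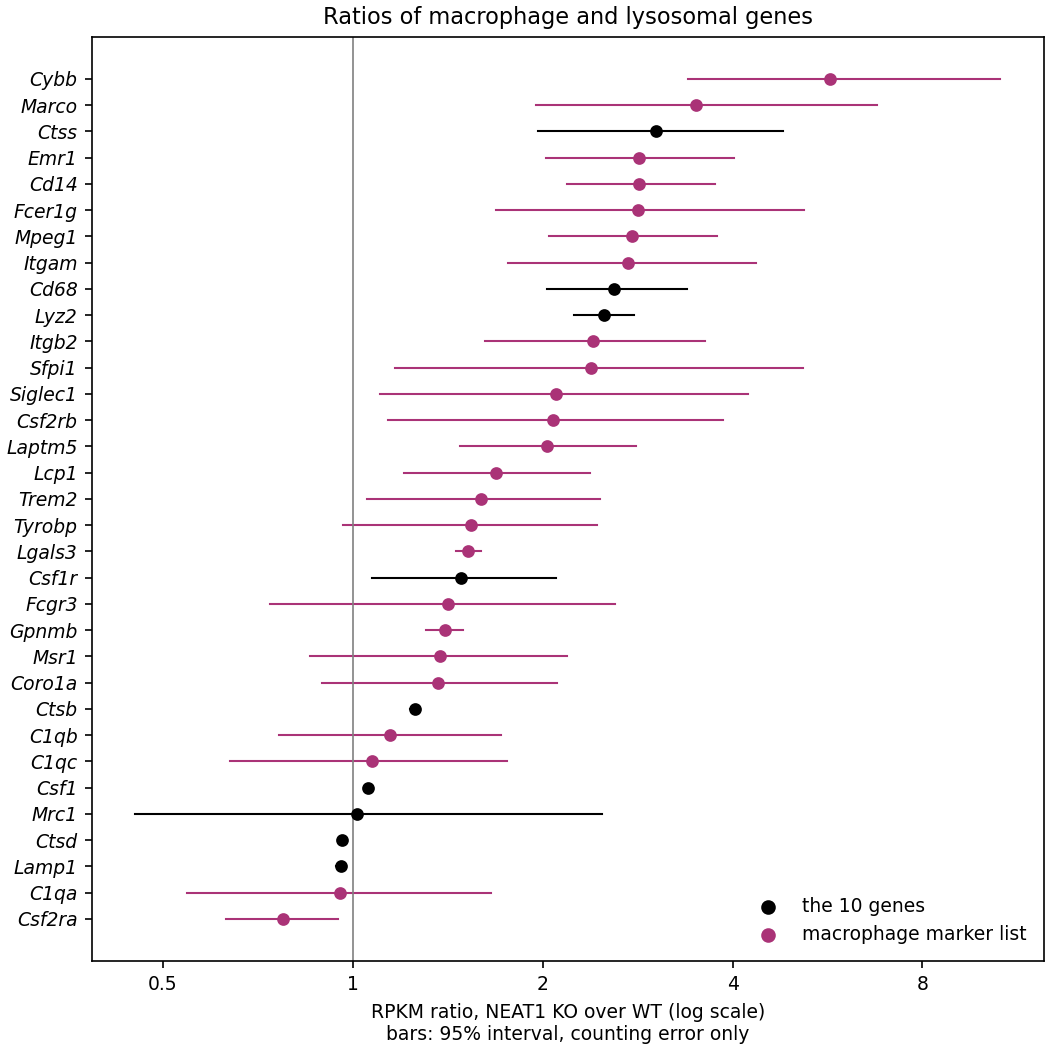
RPKM ratio of KO over WT on a log axis for the members (black) and macrophage markers (purple) with at least 10 estimated read pairs in each library, 33 genes shown. Bars are 95% intervals for counting error only; *Lyz2* (2.50), *Cd68* (2.60) and *Ctss* (3.02) lie among the upper markers, *Csf1r* (1.49) in the middle, and *Ctsd*, *Lamp1* and the C1q genes around 1.

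In a bulk culture a larger number of macrophages and more RNA per cell cannot be told apart, and the part of either in the values of *Lyz2*, *Cd68* and *Ctss* was not tested. Markers of fibroblasts were far above those of macrophages. The 18 of that list summed to 8192 RPKM in WT and 8487 RPKM in KO, led by *Vim* (3151 and 2448 RPKM) and *Col1a1* (1477 and 1874 RPKM). Of the 18, 14 were higher in KO (77.8%, against 39.1% of symbols with at least 1 RPKM in both libraries) and 4 lower. Nothing is read from that count. *Vim* was among the lower ones, as was *Fn1*, the gene of fibronectin (765 and 517 RPKM), which was named after its value had been seen. A log2 ratio above 1 was reached by 3 of the 18, against 0.977% of all symbols, namely the matrix proteoglycan genes *Lum* (7.98 and 33.0 RPKM) and *Dcn* (19.8 and 64.0 RPKM) and the growth factor receptor gene *Pdgfra* (4.18 and 13.8 RPKM). An interferon-response set of 8 genes, known from earlier results to differ, had a median log2 ratio of 2.57, and its member *Irf7*, a transcription factor of the interferon response, had 5.24 and 58.1 RPKM. The targeted *Neat1* had 29.5 RPKM in WT and 2.01 RPKM in KO. The Y-linked *Eif2s3y* was listed at 0 in WT and had 6.30 RPKM in KO. *Ddx3y*, also Y-linked, had 0.0174 RPKM in WT and 4.18 RPKM in KO. Male cells were thus detected in the KO culture, while these genes gave almost no signal in the WT culture. What part the interferon-response genes, the matrix genes or the sex of the embryos had in the values of the 10 genes was not tested.

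The lysosome beyond the members was described by 89 genes in 4 lists, all found. None had a log2 ratio above 1 or below -1, which is close to the shares of 0.977% and 0.334% over all symbols. Higher values in KO were found for 48 and lower ones for 40, with 1 listed at 0 in both libraries, and the median was 0.02, against -0.06 over the symbols with at least 1 RPKM in both libraries. Their summed level was 4542 RPKM in WT and 4684 RPKM in KO, and 85 of the 89 reached 1 RPKM in each library.

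Among 15 other lysosomal proteases the median log2 ratio was 0.09. *Ctsl* and *Ctsz*, cathepsins L and Z, were the most abundant after *Ctsd*, with 189 and 170 RPKM in WT and 218 and 207 RPKM in KO. *Ctsk*, the collagen-degrading cathepsin K of osteoclasts and fibroblasts, had 16.2 RPKM in WT and 27.5 RPKM in KO, the largest log2 ratio of the lysosomal lists (0.73). *Pgcp*, a plasma glutamate carboxypeptidase, went the other way with a log2 ratio of -0.36.

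The 33 glycosidases, lipases and other hydrolases had a median log2 ratio of 0.10, and 24 of them were higher in KO. The highest of them were *Gaa*, the acid alpha-glucosidase (96.8 and 105 RPKM), and *Hexa*, a chain of beta-hexosaminidase (82.7 and 98.3 RPKM). *Gla*, the alpha-galactosidase, had the largest log2 ratio among them (0.56, from 7.05 to 10.9 RPKM), and *Galc*, the galactosylceramidase, the lowest (-0.47, from 6.31 to 4.28 RPKM).

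Genes of the lysosomal membrane, of cofactors and of sorting to the lysosome had a median log2 ratio of -0.06 over 23 genes. Of these, 9 were higher in KO (39.1%, as over the symbols with at least 1 RPKM in both libraries). *Cst3*, the cathepsin inhibitor cystatin C, was the highest (607 and 570 RPKM), followed by the tetraspanin gene *Cd63* (363 and 382 RPKM) and *Psap*, the precursor of saposins (326 and 352 RPKM). *Npc2*, which binds cholesterol in the lysosome, had 117 and 164 RPKM (log2 ratio 0.49). The 18 genes of the V-ATPase, the proton pump that acidifies the lysosome, had a median of -0.07, with 6 higher in KO (33.3%). The largest log2 ratio among them was that of *Tcirg1*, the subunit of osteoclasts and other secretory lysosomes, with 19.7 and 29.6 RPKM (0.57). Of the factors that control lysosomal genes, *Tfeb* had 3.11 and 2.99 RPKM and *Tfe3* had 25.3 and 33.3 RPKM.

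**Figure D4:**
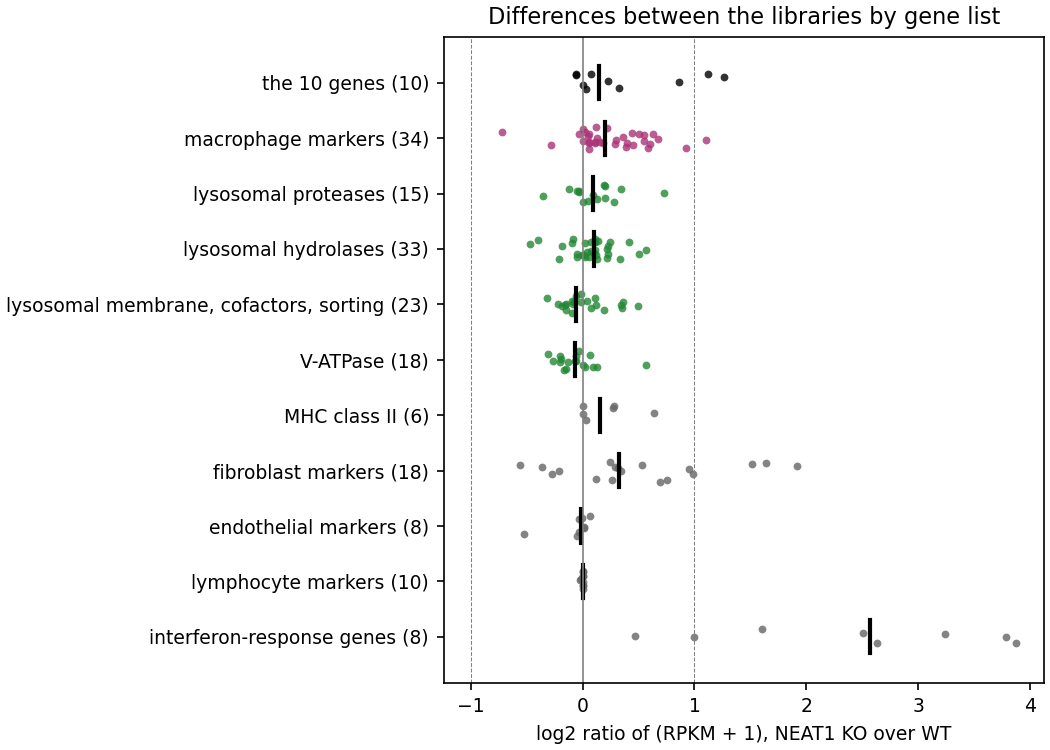
Log2 ratio of (RPKM + 1), KO over WT, for each gene (points, spread vertically for display) by list, with the number of genes in brackets and the median as a black bar. Dashed lines mark -1 and 1; the lysosomal lists lie within them with medians from -0.07 to 0.10, while the macrophage markers have a median of 0.20 and the interferon-response genes of 2.57.

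The mannose receptor family and MHC class II gave the nearest relatives and partners of the members. *Mrc2*, the endocytic collagen receptor of fibroblasts and paralog of *Mrc1*, had 67.6 RPKM in WT and 81.8 RPKM in KO, 841 and 1001 times the level of *Mrc1*. *Pla2r1* had 0.744 and 0.713 RPKM and *Ly75* had 2.98 and 1.71 RPKM. MHC class II genes, on whose invariant chain cathepsin S acts, were low: *H2-Ab1* had 0.716 RPKM in WT and 1.67 RPKM in KO, *H2-DMb1* had 1.50 and 2.03 RPKM, and *H2-DMa* had 2.16 and 2.17 RPKM. None of the 6 genes of that list passed a log2 ratio of 1 in size, against 0.977% of all symbols above 1 and 0.334% below -1. Of the 6, 5 were higher in KO, against 30.1% of all symbols and 39.1% of those with at least 1 RPKM in both libraries. Nothing is read from these counts.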

How the data were processed

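Poly-A RNA of 1 WT and 1 NEAT1 KO MEF culture was sequenced. The authors computed and deposited 1 RPKM value per RefSeq entry, with no normalization between libraries stated. The submitters' processing notes name the build mm10 and CASAVA 1.8; the aligner and counter are not given in the sources used here. Starts in the files count from 0 and are printed from 1. The human libraries were not used.

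Log2 ratios were taken with a pseudocount of 1 RPKM; past 1 in size was counted as called. No test was made. The members and lists were chosen with earlier results of these data known. The genes named by rule were the members, *Neat1*, and macrophage markers with at least 1 RPKM or on a short fixed list. In other lists they were the 3 highest and the 3 largest log2 ratios. *Il34*, *Cybb*, *S100a9*, *Fn1*, *Cd163*, *Ccr2*, *Eif2s3y* and *Ddx3y* were named outside this rule with their values in view. Values of 2 genes of these lists are not reported here, though the list counts, sums, medians and unlabelled points include them.

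RPKM times transcript length (GENCODE M21) clustered at multiples of a value fixed within each library, taken as 1 read pair. Among low entries 56.7% and 60.4% lay within 0.02 of a whole pair or single mate, against 8.0% if spread evenly. Lengths, and hence numbers of pairs, are approximate; for *Cd68* the length was that of the gene's coding transcripts. Pairs are not known to be independent molecules. Python 3.11.15, numpy 2.4.6, pandas 2.3.3, scipy 1.17.1 and matplotlib 3.10.9 were used, and the scripts were tested on simulated data.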

Additional observations from a re-analysis of the deposited data

How the results depend on the processing

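With 1 library per genotype no library could be left out. No paired analysis was possible because each genotype has 1 library and the labels give no replicate numbers. Alternatives were a pseudocount of 0.1 RPKM, centring on the median of expressed symbols, quantile normalization, a minimum of 1 RPKM, and other handling of repeated symbols, which changed nothing because each symbol stands on 1 entry. Of 177 values, 166 moved by at most 1.5 times and none of those past the threshold changed sign. The sign of log2 ratios near 0 depended on the setting. *Csf1* went from 0.08 to -0.04 with quantile normalization, and *Ctsd* from -0.06 to 0.00013 with centring. With a pseudocount of 0.1 the log2 ratio of *Ctss* was 1.47, so that 3 of the 10 genes passed 1, while over all symbols 500 lay above 1, 540 below -1, 118 above 2 and 55 below -2, against 228, 78, 52 and 4. Without *Lgals3* and *Gpnmb*, an alternative chosen after seeing the data, the median of the macrophage markers was 0.17. Depth limits the members below 1 RPKM, above all *Mrc1* and *Lyz1*.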

Other observations

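Markers of other cell types were low in both cultures. Of 10 lymphocyte markers 7 were listed at 0 in both libraries, and of 8 erythroid markers 6 were. The 8 endothelial markers summed to 1.38 RPKM in WT and 0.736 RPKM in KO, led by *Kdr* (1.01 and 0.397 RPKM), and the 8 epithelial markers to 1.33 and 0.758 RPKM, led by *Krt18* (1.02 and 0.660 RPKM). Granulocyte and mast cell markers summed to 1.05 and 4.14 RPKM. That difference came from *Camp*, an antimicrobial peptide of neutrophils and other cells (0.650 and 2.80 RPKM, log2 ratio 1.20), and *S100a8* (0.240 and 1.23 RPKM), while *S100a9*, its usual partner, was listed at 0 in both libraries; *S100a9* was named after its value had been seen.

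Of 7 growth factors, chemokines and receptors that act around macrophages, 6 were higher in KO and 1 lower, with a median log2 ratio of 0.34, or 1.53 over the 3 with at least 1 RPKM in either library. A log2 ratio above 1 was reached by 2 of the 7, against 0.977% of all symbols. *Ccl2*, the main chemokine for monocytes, had 37.5 RPKM in WT and 442 RPKM in KO (log2 ratio 3.52), while its receptor gene *Ccr2* was listed at 0 in both. *Tnfsf11*, the gene of the osteoclast factor RANKL, had 1.68 and 6.76 RPKM (1.53), and *Cx3cl1*, the ligand of Cx3cr1, had 20.6 and 25.7 RPKM (0.31). Of 7 osteoclast markers 5 were higher in KO, 1 was lower and 1 was listed at 0 in both, with a median log2 ratio of 0.02, or 0.96 over the 3 with at least 1 RPKM in either library. Only *Mmp9*, a gelatinase of osteoclasts and other cells, passed 1 among these 7 (0.936 and 8.25 RPKM, log2 ratio 2.26). The share above 1 over all symbols was 0.977%. The share higher in KO was 30.1% of all symbols and 39.1% of those with at least 1 RPKM in both libraries. It was 85.7% in the first of these 2 lists and 71.4% among the osteoclast markers, and nothing is read from the counts of either list.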
